A study of Mus musculus with 7 samples.

Results

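The insulin-like growth factor (IGF) system was described here through 10 genes, all of which were found by name among the 13376 rows of the expression table: the ligands Igf1 and Igf2, the receptor Igf1r, the binding proteins Igfbp2, Igfbp3, Igfbp4, Igfbp5, Igfbp6 and Igfbp7, and the receptor substrate Irs1. RNA came from proliferating C2C12 cells, a mouse myoblast line that can be switched to muscle differentiation. The cells carried either a scrambled control siRNA (2 libraries) or an siRNA against the long noncoding RNA lnc-31 (2 libraries), and no genotype, dose or time after transfection is given in the labels. A second experiment recovered RNA with biotinylated antisense probes against lnc-31 or, as background, against the bacterial lacZ sequence (1 library each). Its input library was not analysed here. Whether the 2 libraries of a group are from different cultures is not stated in the labels, and the p-values then cover only their spread, which can be technical.

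IGF1 and IGF2 are secreted peptides that act through the receptor tyrosine kinase IGF1R, which phosphorylates IRS1 and so engages the PI3K, AKT and mTOR route. IGF binding proteins hold the ligands outside the cell. They can block access to the receptor or carry and release the ligand, and some also act without it. In muscle precursors the system is known for serving both growth and differentiation, and C2C12 cells are known to make IGF2 themselves when they leave the cell cycle.

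The libraries were first checked against their labels. The table names Mir31, the microRNA of the lnc-31 locus, in a merged row that stood at 13.4 and 15.6 FPKM, a count of fragments per length of transcript and per depth of the library, with scrambled siRNA and at 12.1 and 14.1 with the siRNA labelled lnc-31. These ranges overlap (log2 fold change -0.14, limma adjusted p = 0.38), so the row does not show a fall of the targeted RNA, and each direction below is that of libraries so labelled. Over all rows, the control libraries had a Spearman correlation of 0.993 with each other and the other pair one of 0.991. The first principal component (41.4% of the variance) set lnc-31 siRNA 1 apart, with a score of 39.1 against -16.3 to -10.4 in the other 3 libraries. Scrambled siRNA 2 was unusual in the mitochondrial row mt-Nd2, listed at 395110 FPKM there and at 2876 to 3401 elsewhere, and scrambled siRNA 1 had the lowest sum of FPKM (1515600, against 2141390 to 2466050). All 8 myoblast markers had a row, among them Myod1, Des and Chrna1. Their summed level was 441 and 448 FPKM with scrambled siRNA and 512 and 522 with lnc-31 siRNA, and Des was its largest part. In both lnc-31 siRNA libraries 6 of the 8 were above both controls. Myf5 (38.6 and 37.5 FPKM against 35.2 and 35.4) and Vcam1 (29.8 and 30.5 against 24.4 and 25.5) were below both. Groups without overlap were common, at 60.2% of tested rows. None of 5 adipocyte, 4 endothelial and 3 hepatocyte markers had a row, nor had 3 of 4 blood markers. Of 5 osteoblast markers 2 had a row, Runx2 at 16.5 and 17.5 FPKM against 16.4 and 16.2 and Sp7 at 4.36 and 4.21 against 3.51 and 3.73, both without overlap and not called (adjusted p = 0.50 and 0.14). Of 7 fibroblast markers 5 had a row, with sums of 122 and 123 FPKM against 115 and 123. Most of each sum was Ly6a, at 102.4 and 102.1 FPKM against 93.2 and 101, and the other rows were higher on average with lnc-31 siRNA. In bulk RNA, fewer cells of a type and less RNA per cell cannot be told apart.

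In proliferating cells the binding proteins were the abundant part of the system. With scrambled siRNA, Igfbp5 averaged 236 ± 13.9 FPKM (SD, n = 2 for every mean here) and ranked 354th of the 13376 rows, followed by Igfbp6 at 209 ± 0.0233, Igfbp2 at 109.9 ± 5.98 and Igfbp7 at 94.1 ± 0.835. FPKM is scaled to transcript length, so these levels can be compared between genes. Igfbp4 (30.6 ± 2.13) and Igf2 (30.0 ± 1.90) came next, and their libraries overlapped. Irs1 was at 7.94 ± 0.523 and Igf1r at 4.61 ± 0.0618 FPKM. Igfbp3 and Igf1 were lowest, overlapped each other, and stood below 1 FPKM in every library of either group. All other neighbours in this order had libraries that did not overlap. With lnc-31 siRNA the order was the same except for 2 exchanges: Igf2 stood above Igfbp4, with no overlap, and Igf1 above Igfbp3, with overlap.

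**Figure D1:**
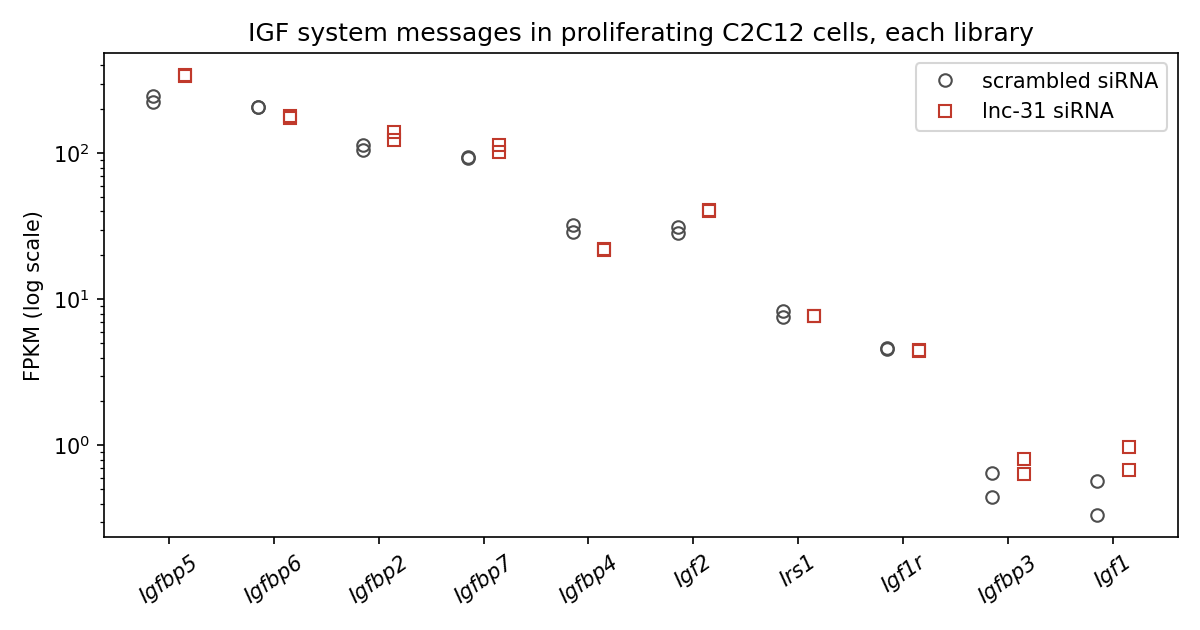
FPKM on a log axis for each of the 10 genes, with 1 point per library (circles, scrambled siRNA; squares, lnc-31 siRNA), ordered by the mean with scrambled siRNA. Igfbp5 lies highest in every library, and Igfbp3 and Igf1 lie below 1 FPKM.

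The comparison of siRNAs asked which messages differ when lnc-31 is targeted in growing cells. Of the 10 genes, 8 had a mean of 1 FPKM or more and were tested. Igfbp5 and Igf2 rose, Igfbp4 and Igfbp6 fell, and Igfbp2, Igfbp7, Igf1r and Irs1 did not pass the test, an adjusted p under 0.05 in limma's fit of all 11500 tested rows. That is 4 of 8 called, where the same rule called 12.4% of all tested rows, 5.64% as higher and 6.78% as lower. Changes are differences of log2(FPKM + 1), so those of low genes come out too small, and the median of the 8 was 0.08 against -0.0067 over all tested rows. The groups did not overlap for 4 of the 8 genes that were higher and 3 that were lower. Non-overlap is common in this table, at 60.2% of tested rows (28.5% higher, 31.7% lower), so it says little by itself. Without lnc-31 siRNA 1, the library that stood apart, Igfbp5, Igf2 and Igfbp4 were called (adjusted p = 0.031, 0.042 and 0.042) and Igfbp6 was not (0.096).

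Among the ligands, Igf2 was at 28.7 and 31.3 FPKM in the scrambled siRNA libraries and at 40.0 and 41.3 with lnc-31 siRNA. Both of the latter were higher than both controls. Igf2, the growth factor of fetal life that differentiating myoblasts also secrete, thus rose from 30.0 ± 1.90 to 40.6 ± 0.863 FPKM (log2 fold change 0.43, SE 0.056, adjusted p = 0.013). Leaving out scrambled siRNA 1 (log2 fold change 0.36, adjusted p = 0.060) or lnc-31 siRNA 2 (0.41, 0.053) ended the call. Igf2 lies on chromosome 7 from 142650768 to 142666816 (mm10) and overlaps the antisense transcript Igf2os and Mir483, neither of which has a row. Igf1, Igf1r and Igfbp7 overlap other genes too, of which only Polr2b, at Igfbp7, has a row. Polr2b was at 44.2 and 50.2 FPKM in the controls and 53.1 and 56.4 with lnc-31 siRNA, and was not called. Whether the authors' values separate the strands was not tested. Igf1, which liver and muscle supply to the body and to their own tissue, was at 0.332 and 0.573 FPKM in the controls and at 0.982 and 0.684 with lnc-31 siRNA. These groups did not overlap, as was so for 28.9% of untested rows in that direction, and the row was too low to enter the test. With no filter on low values its log2 fold change was 0.34 (adjusted p = 0.17). Igf2 exceeded Igf1 by 40.8 to 86.4 times in the 4 libraries, a ratio whose spread comes mostly from the low level of Igf1.

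The receptor and its substrate did not pass the test. Igf1r was at 4.56 and 4.65 FPKM in the controls and at 4.44 and 4.50 with lnc-31 siRNA, a log2 fold change of -0.04 (SE 0.065, adjusted p = 0.76) with a 95% interval of -0.20 to 0.13. Irs1, the docking protein through which the receptor reaches PI3K, was at 7.57 and 8.31 against 7.66 and 7.66 FPKM. Its libraries overlapped, and its log2 fold change was -0.04 (SE 0.066, adjusted p = 0.70; 95% interval -0.21 to 0.12). Both intervals hold changes of either sign, so small changes are not excluded with 4 libraries. They are not adjusted for the number of rows tested.

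Igfbp5 showed the largest change of the 8 tested genes on this scale. Its libraries were at 226 and 246 FPKM in the controls and at 344 and 338 with lnc-31 siRNA, with a wide gap between the groups. Igfbp5, the binding protein known as an early product of differentiating myoblasts, rose from 236 ± 13.9 to 341 ± 4.17 FPKM (log2 fold change 0.53, SE 0.054, adjusted p = 0.0080). It was called under all 12 alternative settings, with log2 fold changes from 0.47 to 0.59 and adjusted p from 0.0043 to 0.043.

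Igfbp4, a binding protein that mostly inhibits IGF action, was at 29.1 and 32.1 FPKM in the controls and at 22.0 and 21.7 with lnc-31 siRNA. Every control library lay above both others. The gene fell from 30.6 ± 2.13 to 21.9 ± 0.170 FPKM (log2 fold change -0.47, SE 0.059, adjusted p = 0.012), and the call was lost without scrambled siRNA 2 (-0.40, adjusted p = 0.054). Igfbp6, which prefers IGF2 over IGF1 as its ligand, was at 208.5 and 208.6 FPKM in the controls and at 174 and 181 with lnc-31 siRNA. It fell from 209 ± 0.0233 to 178 ± 5.09 FPKM (log2 fold change -0.23, SE 0.042, adjusted p = 0.027). This smaller change lost its call with any single library left out (adjusted p = 0.12 without either control library, 0.096 and 0.065 without lnc-31 siRNA 1 or 2) and with a constant prior variance (0.057).

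Igfbp2, a binding protein of growing and fetal tissues, was at 106 and 114 FPKM against 124 and 141. The groups did not overlap, but the spread within the lnc-31 siRNA group was wide, and the log2 fold change of 0.27 did not pass (SE 0.074, adjusted p = 0.074). It was called under 3 of 12 alternative settings, among them median of ratios scaling (adjusted p = 0.035) and quantile normalization (0.032). Igfbp7, a more distant relative that binds IGFs weakly, was at 94.7 and 93.5 FPKM against 102 and 115 (log2 fold change 0.20, SE 0.063, adjusted p = 0.10), and was called under quantile normalization alone of the 12 alternatives (0.045). Igfbp3, the main carrier in serum, was at 0.442 and 0.649 FPKM in the controls and at 0.634 and 0.804 with lnc-31 siRNA. Its groups overlapped, and it was not tested.

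**Figure D2:**
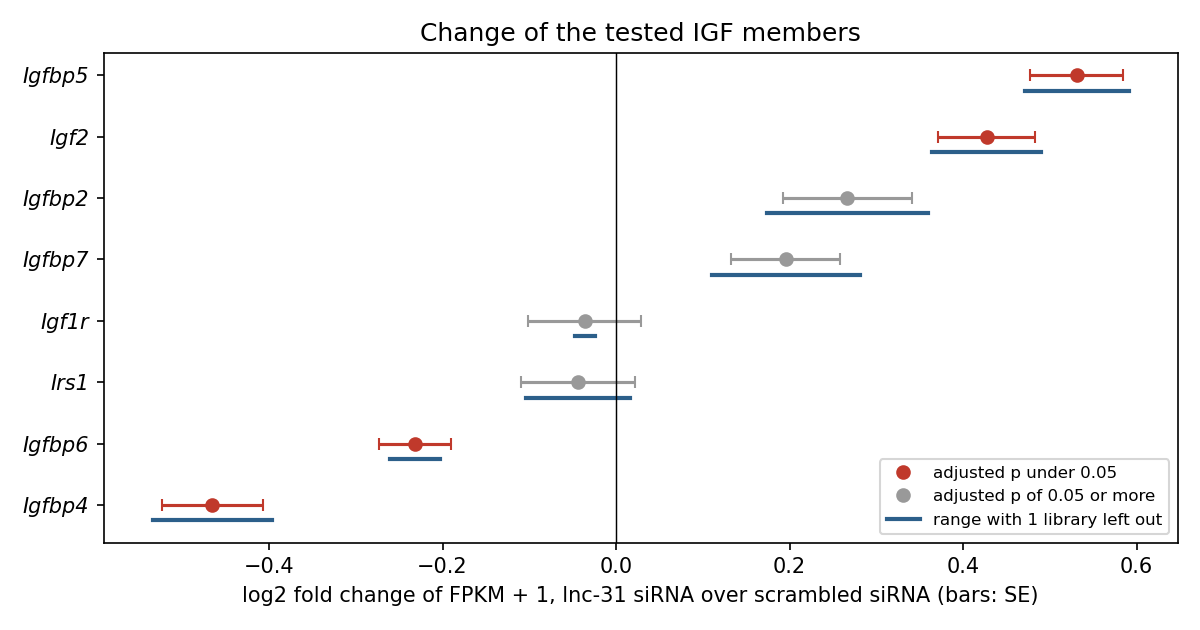
Log2 fold change of FPKM + 1 (points, with the standard error as bars) for the 8 tested genes, in red where the adjusted p was under 0.05, and the range of the log2 fold change when 1 library was left out (blue lines). Igfbp5 and Igf2 lie at 0.53 and 0.43 and Igfbp6 and Igfbp4 at -0.23 and -0.47, while Igf1r and Irs1 lie near 0.

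Because some binding proteins were higher and others lower, the make-up of the group differed between siRNAs. The 6 binding protein rows summed to 665 and 695 FPKM with scrambled siRNA and to 766 and 797 with lnc-31 siRNA. Igfbp5 made up 34.0% and 35.4% of that sum in the controls and 44.9% and 42.4% in the other libraries. Igfbp6 made up 31.4% and 30.0% against 22.7% in each. The share of Igfbp4 was 4.38% and 4.62% against 2.87% and 2.73%, whereas Igfbp2 (15.9% and 16.4% against 16.2% and 17.7%) and Igfbp7 (14.2% and 13.5% against 13.3% and 14.4%) had shares whose groups overlapped. Igfbp5 stood at 7.77 and 7.65 times the level of Igfbp4 in the controls and at 15.6 and 15.5 times with lnc-31 siRNA. These shares and ratios are built from the values tested above and have no test of their own. They describe messages, and the secreted proteins were not measured.

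**Figure D3:**
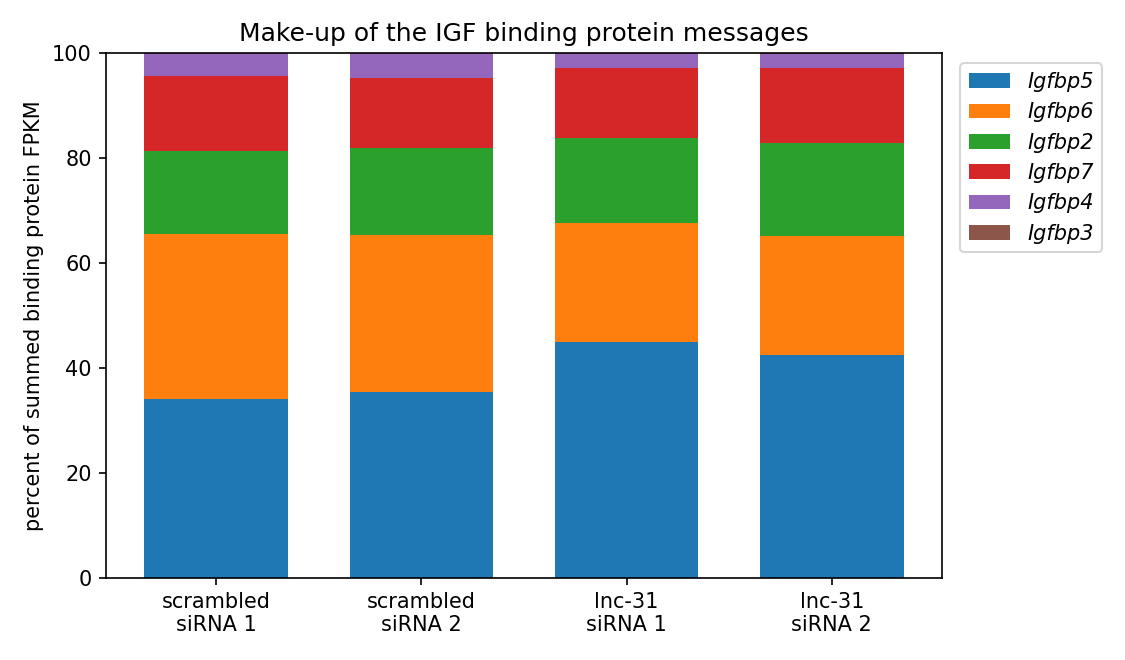
Share of each binding protein in the summed FPKM of the 6 binding protein rows, as stacked bars for each of the 4 libraries. The Igfbp5 part is larger (42.4% and 44.9%) and the Igfbp6 part smaller (22.7%) with lnc-31 siRNA, and Igfbp3 is too small to see.

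The sequences just before the transcription starts of the 4 called genes are shown because these genes moved in opposite directions in the same cells. They come from RefSeq (GRCm38.p6, the coordinates of mm10) and hold the 250 bases before an annotated start, 5′ to 3′ on the gene's strand. Capitals mark CANNTG, the E-box pattern that muscle basic helix-loop-helix factors such as MyoD can bind, and TATAAA, a core promoter pattern, both searched on both strands.
Igfbp5 (rose), chr1:72874866-72875115, minus strand: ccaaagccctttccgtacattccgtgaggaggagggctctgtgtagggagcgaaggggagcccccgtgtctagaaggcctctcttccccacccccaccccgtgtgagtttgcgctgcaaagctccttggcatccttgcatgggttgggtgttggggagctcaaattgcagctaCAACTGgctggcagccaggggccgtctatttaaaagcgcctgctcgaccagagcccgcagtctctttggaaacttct
Igf2 (rose), chr7:142666817-142667066, minus strand: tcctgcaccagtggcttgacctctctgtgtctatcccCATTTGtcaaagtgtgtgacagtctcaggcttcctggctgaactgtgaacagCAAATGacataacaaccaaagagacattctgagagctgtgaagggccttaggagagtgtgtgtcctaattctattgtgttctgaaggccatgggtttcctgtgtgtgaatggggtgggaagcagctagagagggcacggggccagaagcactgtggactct
Igfbp4 (fell), chr11:99040994-99041243, plus strand: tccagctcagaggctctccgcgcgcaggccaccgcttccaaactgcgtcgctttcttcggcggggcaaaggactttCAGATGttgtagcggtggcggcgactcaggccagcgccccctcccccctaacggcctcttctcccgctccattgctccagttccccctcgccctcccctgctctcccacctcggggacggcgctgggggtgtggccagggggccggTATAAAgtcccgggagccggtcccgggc
Igfbp6 (fell), chr15:102143936-102144185, plus strand: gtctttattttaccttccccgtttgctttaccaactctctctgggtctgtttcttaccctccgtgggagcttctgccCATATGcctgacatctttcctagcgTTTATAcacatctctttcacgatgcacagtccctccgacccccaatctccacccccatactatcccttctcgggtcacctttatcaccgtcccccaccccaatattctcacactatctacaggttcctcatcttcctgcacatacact
The windows of Igfbp5, Igfbp4 and Igfbp6 each hold 1 CANNTG, at 77, 174 and 173 bases before the start used. For Igfbp4 that start lies inside the RefSeq gene span, which begins upstream at 99040005. Igf2 has 4 windows in the reference table. The one shown, of the start farthest upstream, holds 2 and the others none. Which of these starts the cells use was not tested. Over the 10 genes, 9 of 14 windows held CANNTG, against 66.2% of 32851 promoter windows of the same length, a similar share. CAGCTG, the form of the E-box most favoured by MyoD, stood in 1 of the 14, that of Igf1, against 13.0% of all windows. TATAAA stood in 2 of the 14 against 12.4% of all windows. In Igfbp4 it lies 28 bases before the start, and in Igfbp6 it lies on the opposite strand. A match in these windows is a pattern of letters and not a measured binding site. GC content ran from 47.6% (an Igf2 start) to 77.6% (Igf1r), with a median of 52.4% over all windows.

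Muscle genes moved beside Igf2 and Igfbp5. Of 18 tested regulators and contractile genes of differentiation, 16 rose and 1 fell, with a median log2 fold change of 0.73. Over all tested rows, 5.64% were called higher and 6.78% lower. Cardiac actin Actc1 was at 41.5 and 42.4 FPKM in the controls and at 70.1 and 70.7 with lnc-31 siRNA (adjusted p = 0.0030). Myoglobin (Mb), embryonic myosin (Myh3) and the fast light chain Mylpf had log2 fold changes of 1.12, 0.86 and 0.81, and Mef2d was the one that fell (-0.26). Leaving out any single library left 13 or 14 higher and 0 lower. Of the 8 myoblast markers 4 rose, among them Chrna1, Myod1 and Des, and Vcam1 fell. With any single library left out the calls of Des and Vcam1 were lost, and that of Myod1 was lost without either control library or without lnc-31 siRNA 2. Of 3 tested fibroblast markers none was called, while the untested Dpt went from 0.179 and 0.189 to 0.623 and 0.814 FPKM and Pi16 from 0.526 and 0.508 to 0.899 and 0.770. The part of these cells or of differentiation in the IGF results was not tested.

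The genes with profiles most like each called member were found by the root mean square difference of log2(FPKM + 1), centred on each gene's mean, over the 4 libraries. For Igfbp5 they were Hid1 (0.010), the acetylcholine receptor subunit Chrna1 (0.012) and Klhdc1 (0.014), out of 37 genes within 0.05. For Igf2 they were Dpm2 (0.015), the desmosomal protein gene Pkp1 (0.016) and the stress-responsive transcription factor Nfe2l1 (0.017), out of 107. For Igfbp4 they included Terf2ip (0.018) and Taf13 (0.019), out of 70. For Igfbp6 they were the mitotic kinesin Kif18b (0.0058), the kinase Pak1 (0.0065) and Reps1 (0.0077), out of 857. With 4 libraries in 2 groups, the points behind such likeness share the difference between the groups.

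Other receptors and adaptors of the pathway were mostly not called. Of 8 tested, 1 rose and none fell (median log2 fold change 0.08), a share near the 12.4% called over all tested rows. It was Igf2r, the receptor that clears IGF2 by carrying it to lysosomes, at 9.57 and 10.5 FPKM with scrambled siRNA and 13.7 and 13.3 with lnc-31 siRNA (log2 fold change 0.39, SE 0.062, adjusted p = 0.020). Both lnc-31 siRNA libraries were above both controls, and the call was lost whichever of the 4 libraries was left out (adjusted p from 0.057 to 0.083). Igf2 stood at 2.995 and 2.986 times the level of Igf2r in the controls and at 2.93 and 3.11 times with lnc-31 siRNA, and the groups overlapped in this ratio of ligand to clearance receptor. The adaptors Shc1 and Grb2, which lead from the receptor to Ras, were at 51.4 ± 3.11 and 37.3 ± 0.117 FPKM in the controls (adjusted p = 0.49 and 0.44). Grb10, an adaptor that restrains the receptor, was too low to be tested, at 0.163 and 0.227 FPKM against 0.574 and 0.845.

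Among other binding proteins and genes that process IGFs or their carriers, 1 of 6 tested rose and none fell (median 0.13). This stands beside the same shares of all tested rows, 12.4% called in either direction and 5.64% as higher. The secreted serine protease gene Htra3 was at 5.51 and 7.76 FPKM in the controls and at 10.1 and 12.3 with lnc-31 siRNA (log2 fold change 0.68, SE 0.16, adjusted p = 0.048). Its libraries were spread widely within each group. The call was lost with no filter (0.061), with a constant prior, and without scrambled siRNA 1 or either lnc-31 siRNA library. Htra1, a relative that can cleave binding proteins, and the metalloprotease Adam9 were at 45.8 ± 0.475 and 53.0 ± 0.278 FPKM in the controls and were not called (adjusted p = 0.38 and 0.59). Pappa, the protease that frees IGFs from IGFBP4, was below 1 FPKM in every library, at 0.403 and 0.419 against 0.642 and 0.719, and was not tested.

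Of 3 tested genes tied to IGF2 expression 1 rose and 1 fell, where 5.64% and 6.78% of all tested rows were called higher and lower. A list of 3 is too short to be set against these shares. Igf2bp2, an RNA-binding protein that binds Igf2 mRNA, was at 19.6 and 21.1 FPKM in the controls and at 15.03 and 14.7 with lnc-31 siRNA (log2 fold change -0.43, SE 0.054, adjusted p = 0.012). Hmga2, a chromatin factor known to act on Igf2bp2, was at 80.9 and 78.1 against 93.1 and 95.3 FPKM (log2 fold change 0.24, SE 0.041, adjusted p = 0.024). These 2 messages, and Igf2 and Igf2bp2, thus differed in direction. Igf2bp2 lost its call without scrambled siRNA 2 or lnc-31 siRNA 2, and Hmga2 lost its call with a constant prior variance and whichever library was left out. H19, the noncoding RNA imprinted in the opposite way to Igf2, shares a row with the microRNA it hosts. That row was at 728 and 843 FPKM against 703 and 725 (log2 fold change -0.13, SE 0.079, adjusted p = 0.31), so it was not called in either direction.

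Downstream of the receptor, 3 of 18 tested genes of PI3K, AKT and FoxO rose and none fell (median 0.08). Over all tested rows 12.4% were called in either direction and 5.64% as higher. The genes that rose included the regulatory subunits Pik3r3, at 16.5 and 17.2 FPKM in the controls and 19.9 and 20.7 with lnc-31 siRNA (log2 fold change 0.25, adjusted p = 0.034), and Pik3r2 (0.20, 0.035). With any 1 library left out none of the list was called, and a constant prior called 1 other gene of the list as lower. Akt1, the most abundant of the list, was at 136 and 144 against 141 and 149 FPKM and was not called (adjusted p = 0.56).

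Of 18 tested genes of the mTOR complexes and their regulators, 5 rose and 1 fell (median 0.08). Over all tested rows 12.4% were called, 5.64% as higher and 6.78% as lower. The genes that rose were Ddit4 (log2 fold change 0.88), Sesn2 (0.57), Sesn1 (0.39), Akt1s1 (0.33) and the translation repressor Eif4ebp1 (0.53). All 5 are known as restraints of mTOR complex 1 or of its output, but other restraints in the list were not called: Tsc1 (-0.04), Tsc2 (-0.02), Eif4ebp2 (-0.11), Ddit4l (0.07), Sesn3 (0.11) and Deptor (0.01). Ddit4 was at 72.0 and 74.8 FPKM in the controls and at 126 and 147 with lnc-31 siRNA (SE 0.078, adjusted p = 0.0057). Eif4ebp1 was at 88.4 and 86.6 FPKM against 122 and 133 (adjusted p = 0.0077). Ddit4, Sesn2 and Eif4ebp1 are also known as stress response genes. The scaffold of the complex, Rptor, was the gene that fell, from 15.9 and 16.5 to 11.8 and 11.7 FPKM (log2 fold change -0.44, SE 0.049, adjusted p = 0.0096), and it lost its call without scrambled siRNA 2 (0.060). Mtor and Rictor were not called (adjusted p = 0.92 and 0.92). With 1 library left out, 3 to 5 of the list rose.

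Of 11 tested FoxO target genes, which AKT signalling is known to hold down, 3 rose and none fell (median 0.16). Over all tested rows 12.4% were called in either direction and 5.64% as higher. Txnip, which limits glucose uptake, was at 3.55 and 3.75 FPKM in the controls and at 6.96 and 6.43 with lnc-31 siRNA (log2 fold change 0.73, SE 0.072, adjusted p = 0.0076). Fbxo32, the muscle ubiquitin ligase atrogin, was at 2.84 and 3.14 against 4.62 and 4.71 FPKM (0.51, SE 0.076, adjusted p = 0.018), a call lost with any single library left out. Sesn1, already counted among the mTOR regulators, was the other. The remaining 8 were not called: Ccng2 (-0.10), Fbxo30 (-0.03), Irs2 (0.06), Insr (0.09), Sesn3 (0.11), Cited2 (0.16), Pik3ip1 (0.25) and Bcl2l11 (0.25). Trim63, the gene of another muscle ubiquitin ligase, was too low to be tested, at 0.266 and 0.304 against 1.11 and 1.02 FPKM. Without scrambled siRNA 1 a single gene of the list was called, and without each of the other libraries in turn 2 were.

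**Figure D4:**
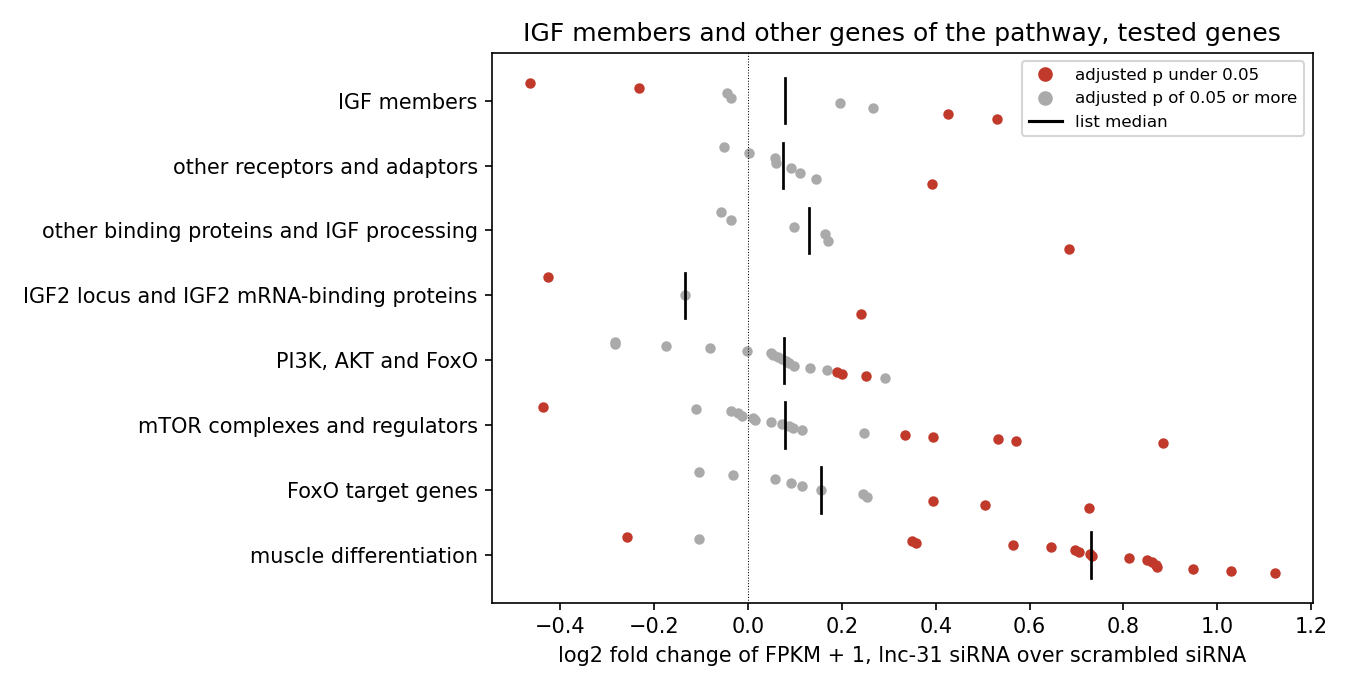
Log2 fold change of FPKM + 1 for the tested genes of the IGF members and of 7 lists, with 1 point per gene (red, adjusted p under 0.05) and a black line at each list's median. The red points of the IGF members lie on both sides of 0, those of the PI3K and FoxO target lists lie above 0, and the muscle list has a median of 0.73.

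The pull-down comparison asked whether the IGF messages were recovered with lnc-31 probes. Of 596 peaks with lnc-31 probes and 476 with lacZ probes, none overlapped the gene span of any of the 10 genes. This was also so when each span was extended by 1 kb. Peaks were rare over all genes, with 1.78% of 12323 table genes holding a lnc-31 probe peak and 1.68% a lacZ peak, so 10 genes without one is no departure from the rest. Of 85 other genes of the lists, 2 held a lnc-31 probe peak and 2 a lacZ peak, so the number of genes, though not of peaks, was equal to that of the background probes. Those with lnc-31 probe peaks were Deptor, an inhibitor of mTOR, with 4 and Adam9 with 1, and those with lacZ peaks were Hmga2 and Fbxo30 with 1 each. Deptor was at 13.0 and 12.6 FPKM in the controls and at 13.0 and 12.9 with lnc-31 siRNA (adjusted p = 0.88). With 1 library per probe set there is no test of these counts, and a message without a called peak may still have been recovered below the level of calling.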

How the data were processed

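RNA was sequenced from C2C12 libraries of siRNA-treated cells and of a probe pull-down, with a stranded mRNA kit for the former and an amplification kit for the latter, per the labels' protocols. FPKM values of the siRNA libraries were deposited by the authors, who used Trimmomatic, Bowtie2, BWA, TopHat2 and Cuffdiff with build mm10, according to the submitters' processing notes, which state no order or settings, and no source used here says whether strand was used. In the deposited peak lists, column 7 was taken for a p-value from its range alone, and no source used here names the peak caller. Depth per library is unknown from FPKM, so no counting error is given, and precision comes from the spread between libraries. There were 0 sample columns without a label. Rows with no value of 0.307 FPKM or more in any library are absent from the table.

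Rows averaging at least 1 FPKM (11500 of 13376) were compared as log2(FPKM + 1) with limma 3.58.1 (R 4.3.3). The prior variance followed a trend, with 3.62 prior degrees of freedom, and two-sided p-values were adjusted by Benjamini and Hochberg's method over all tested rows. All adjusted p-values are from limma. On simulated data for this comparison (11500 rows, 200 changed) the fit recovered 95.1% of changes of 1.5-fold, 98.2% of those of 2-fold and 100% of those of 3-fold, and 4.41% of calls were false. The members and gene lists were chosen with earlier results of these data known, so a list is described by counts and a median and has no test of its own. The text names all members, up to 4 called genes per list by smallest p (or the 2 most abundant rows where fewer than 2 were called), and for each called member the 3 rows of most similar profile, passing over predicted genes (Gm and Rik names); 2 genes that this rule names are not reported here. Genes added beyond that rule were chosen after their values were seen: H19, mt-Nd2, Fbxo30, Myf5, Trim63, Tsc1, Tsc2, Eif4ebp2, Ddit4l, Sesn3, Akt1, Akt1s1, Deptor, Dpt, Pi16, Mtor, Rictor, Mef2d, Grb10, Pappa, Ccng2, Irs2, Insr, Cited2, Pik3ip1, Bcl2l11 and the neighbouring genes. Gene spans and promoters came from RefSeq on GRCm38.p6, whose coordinates are those of mm10, and all 10 members matched. Peaks overlapped a span by 1 base or more. Tables and plots used pandas 2.3.3, matplotlib 3.10.9 and numpy 2.4.6 under Python 3.11.15. Alternatives tried were leaving out each library, median of ratios scaling, quantile normalization, a pseudocount of 0.1 or 0.5, a minimum mean of 5 FPKM or none, a prior variance without trend, a replicate block, and other overlap rules.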

Additional observations from a re-analysis of the deposited data

How the results depend on the processing

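The 4 called IGF genes kept their direction under all 12 alternatives. Their groups did not overlap, so only the changes of scaling could have reversed it, and the others say nothing about direction. The number of members called was 3 to 6 with other pseudocounts, filters, scalings and priors. With 1 library left out it ran from 2 to 3, while the count over all tested rows fell from 1429 to between 260 and 491. Without scrambled siRNA 1 it was 2 and 289, without scrambled siRNA 2 it was 2 and 260, without lnc-31 siRNA 1 it was 3 and 491, and without lnc-31 siRNA 2 it was 2 and 415. Fewer libraries lower these counts by construction, and a lone library is then assumed to vary like the other group. Quantile normalization called 6 members and median of ratios scaling 5. Irs1 changed sign without scrambled siRNA 2 (log2 fold change 0.016, lowest -0.10 without scrambled siRNA 1) and Shc1 without scrambled siRNA 1 (-0.00036, highest 0.12 without scrambled siRNA 2), and neither was called. The replicate numbers are not stated to pair libraries, and deviations of equally numbered libraries correlated at r = -0.094 over 2 pairs. With the replicate number as a block 5 members (Igfbp2 the added one, adjusted p = 0.021) and 1613 rows were called. Peaks over members numbered 0 under every overlap rule. Depth is unknown, and members below 1 FPKM were too low to be compared.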

Other observations

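Positions of the members in the genome were looked at after the results were seen. Igfbp2 and Igfbp5 are neighbours on chromosome 1, 5.59 kb apart, and were both higher in every lnc-31 siRNA library, although only Igfbp5 was called. Within 200 kb of the 10 genes the table has 34 other rows, of which 28 were tested, 3 rose and 6 fell, where 5.64% and 6.78% of all tested rows were called higher and lower. Parpbp, close to Igf1, fell (log2 fold change -0.25, adjusted p = 0.041), although the untested Igf1 was higher in every lnc-31 siRNA library. Rhbdd1, close to Irs1, rose (0.25, adjusted p = 0.0495), although Irs1 was not called. Near Igf2, the fast troponin Tnnt3 (134.6 kb away) rose by 0.95 on the log2 scale and Lsp1 by 0.32 (adjusted p = 0.0085 and 0.047), while H19 (72.6 kb) and Mrpl23 (110.0 kb) were not called. Near Igfbp4, which fell, the topoisomerase Top2a (15.8 kb) and the replication licensing gene Cdc6 (116.1 kb) also fell, with log2 fold changes of -0.28 and -0.43 (adjusted p = 0.018 and 0.0080), and Rara, Wipf2, Rapgefl1 and Smarce1 were not called. Near Igfbp6, Itgb7, Mfsd5 and the separase Espl1 fell (-0.48, -0.23 and -0.29), while Spryd3, the nearest tested gene at 7.97 kb (adjusted p = 0.36), Csad, Eif4b, Zfp740, Rarg, Aaas and the row shared by Pfdn5 and Myg1 were not called.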
